A study of Homo sapiens with 9 samples.

Results

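CA9, other carbonic anhydrases and acid-base transporters were described in the human hepatocellular carcinoma (HCC) line MHCC97L and in 2 drug-resistant lines derived from it. The 9 genes, CA9, CA12, CA2, CA5B, CA8, CA11, CA13, SLC16A3 and SLC4A7, were chosen by name from 20030 genes in the count table. They were selected on results of these same libraries, namely the differences in RNA level between the lines, so their values are a description and are not tested here. RNA sequencing was carried out on 9 libraries, 3 per line. MHCC97L was untreated and served as the control. MHCC97L-Src is MHCC97L after exposure to rising doses of saracatinib, an inhibitor of Src family kinases, until it was stably resistant to 4 μmol/L. MHCC97L-Oxa is MHCC97L stably resistant to 2 μmol/L of oxaliplatin, a platinum drug. Each line is a single derivative of the same parent, all were kept in the same serum-containing medium, and the labels do not say whether the drugs were present at harvest.

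Carbonic anhydrases interconvert carbon dioxide and water with bicarbonate and protons. CA9 and CA12 sit in the plasma membrane with the active site outside the cell, CA2 and CA13 are cytosolic, CA5B is mitochondrial, and CA8 and CA11 lack the catalytic activity of the family. CA9 is a classical target of hypoxia-inducible factors (HIFs), which are degraded when oxygen is present, and is known as a marker of hypoxic tumours. SLC16A3 (MCT4) exports lactate together with protons, and SLC4A7 (NBCn1) brings sodium and bicarbonate into the cell.

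The sequences around 3 start sites are shown. CA9 and CA5B had higher levels in both resistant lines, and CA12 is the other membrane-bound enzyme with its active site outside. CA11 and SLC16A3 were also higher in both, without overlap with MHCC97L. No window was found for CA11, and for SLC16A3 only the matches are given. The sequences were taken from RefSeq (assembly GRCh38.p14) and are written 5′ to 3′ on the strand of the gene. They run from 250 bases before the start to 50 bases after it. Capitals mark ACGTG or GCGTG, the letters of the core element bound by HIFs, or their reverse complements CACGT and CACGC. The windows are chr9:35673678-35673977 (+ strand) for CA9, chr15:63381797-63382096 (− strand) for CA12 and chrX:15738020-15738319 (+ strand) for CA5B.
CA9: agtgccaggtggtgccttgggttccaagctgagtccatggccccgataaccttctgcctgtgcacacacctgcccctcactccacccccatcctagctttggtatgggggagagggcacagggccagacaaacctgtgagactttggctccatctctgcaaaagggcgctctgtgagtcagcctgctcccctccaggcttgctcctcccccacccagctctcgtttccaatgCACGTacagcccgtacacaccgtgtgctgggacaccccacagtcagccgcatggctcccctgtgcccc
CA12: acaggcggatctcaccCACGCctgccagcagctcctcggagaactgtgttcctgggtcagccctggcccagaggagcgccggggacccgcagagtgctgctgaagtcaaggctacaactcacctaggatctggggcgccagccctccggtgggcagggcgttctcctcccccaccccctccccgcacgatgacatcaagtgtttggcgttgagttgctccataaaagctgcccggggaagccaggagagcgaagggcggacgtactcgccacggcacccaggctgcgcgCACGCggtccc
CA5B: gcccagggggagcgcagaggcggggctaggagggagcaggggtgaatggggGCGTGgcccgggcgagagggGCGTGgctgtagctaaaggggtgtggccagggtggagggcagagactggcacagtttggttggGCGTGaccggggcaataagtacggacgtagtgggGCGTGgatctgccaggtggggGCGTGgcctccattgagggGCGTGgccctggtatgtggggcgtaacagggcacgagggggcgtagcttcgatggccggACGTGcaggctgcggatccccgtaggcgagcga

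Positions are counted from the RefSeq start of each window, which for CA9, CA12 and CA5B lies inside the GENCODE gene limits given below. A match before this start can therefore lie inside the GENCODE gene. The CA9 window held 1 match, ACGTG on the opposite strand, from 18 to 14 bases before the start. The CA12 window held no ACGTG and 2 GCGTG matches, both on the opposite strand. The CA5B window held 6 GCGTG matches before the start and 1 ACGTG match after it. Windows were found for 5 of the 9 genes, including 5 windows for SLC16A3 and 2 for SLC4A7. Of the SLC16A3 windows, 1 held 2 ACGTG matches, 1 held 3 GCGTG matches and 1 held 1 GCGTG match, and 1 SLC4A7 window held 3 GCGTG matches. Of 35116 RefSeq windows of the same length, 21.4% held ACGTG, 36.5% held GCGTG and 48.4% held either. A match to these letters is a description of the window only.

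The total count ranged from 16970486 to 18209213 per library. The smallest amount regarded as detectable, 3 counts, equals 0.165 to 0.177 CPM (counts scaled to the library total), and this limit covers counting error only. MHCC97L replicate 1 stood apart. Across genes, its deviation from the mean of the 9 libraries had a Spearman's rho with GC content of −0.783, against −0.247 in MHCC97L replicate 3 and 0.196 to 0.703 in the other 7 libraries. Fold changes of the 9 genes against MHCC97L, where fitted, are therefore given as counted and also after a correction for GC content and gene length. Those of other genes are given as counted, with corrected values added for some. ALB, AFP, APOB and TTR, listed as hepatocyte and HCC markers, were at 0 in every library. The epithelial keratin KRT8 was high, at 1611 to 3855 CPM. Among blood cell markers PTPRC, CD3E and HBB were at 0 in every library.

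CA9 was low in MHCC97L and high in both resistant lines. The counts were 111, 201 and 214 in MHCC97L replicates 1 to 3, which correspond to 6.29, 11.3 and 11.9 CPM. In MHCC97L-Src they were 4263, 5942 and 2080, or 246, 350.1 and 118 CPM. In MHCC97L-Oxa they were 9994, 9157 and 10023, or 549, 511 and 564 CPM. No library of one line overlapped with those of another, and the highest MHCC97L library was far below the lowest MHCC97L-Src library. Relative to MHCC97L (9.84 ± 3.09 CPM, SD, n = 3), the mean was 238 ± 116 CPM in MHCC97L-Src and 541 ± 27.4 CPM in MHCC97L-Oxa. The fitted log2 fold change was 4.68 ± 0.52 (SE) in MHCC97L-Src, a 25.7-fold higher level, and 5.78 ± 0.35 in MHCC97L-Oxa, a 54.9-fold higher level. After correction for GC content and length these were 4.15 ± 0.34 and 5.45 ± 0.12. In bulk RNA, more cells with CA9 transcripts and more transcripts per cell cannot be told apart.

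CA9 had its largest SD in MHCC97L-Src. MHCC97L-Src replicate 3 had the lowest CA9 level and also the lowest GC correlation of its line (rho 0.199), while replicate 2 had the highest of both (rho 0.703), and the part of library composition in this spread was not tested. MHCC97L-Src was lower than MHCC97L-Oxa by a fitted log2 fold change of −1.10 ± 0.32, a 2.15-fold lower level. Without MHCC97L-Src replicate 3 this difference was −0.74, and without replicate 2 it was −1.57, and both of these fits called CA9 although the fit of all 6 libraries did not. They called 1617 and 1033 genes in all, against 556 with all 6 libraries.

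**Figure D1:**
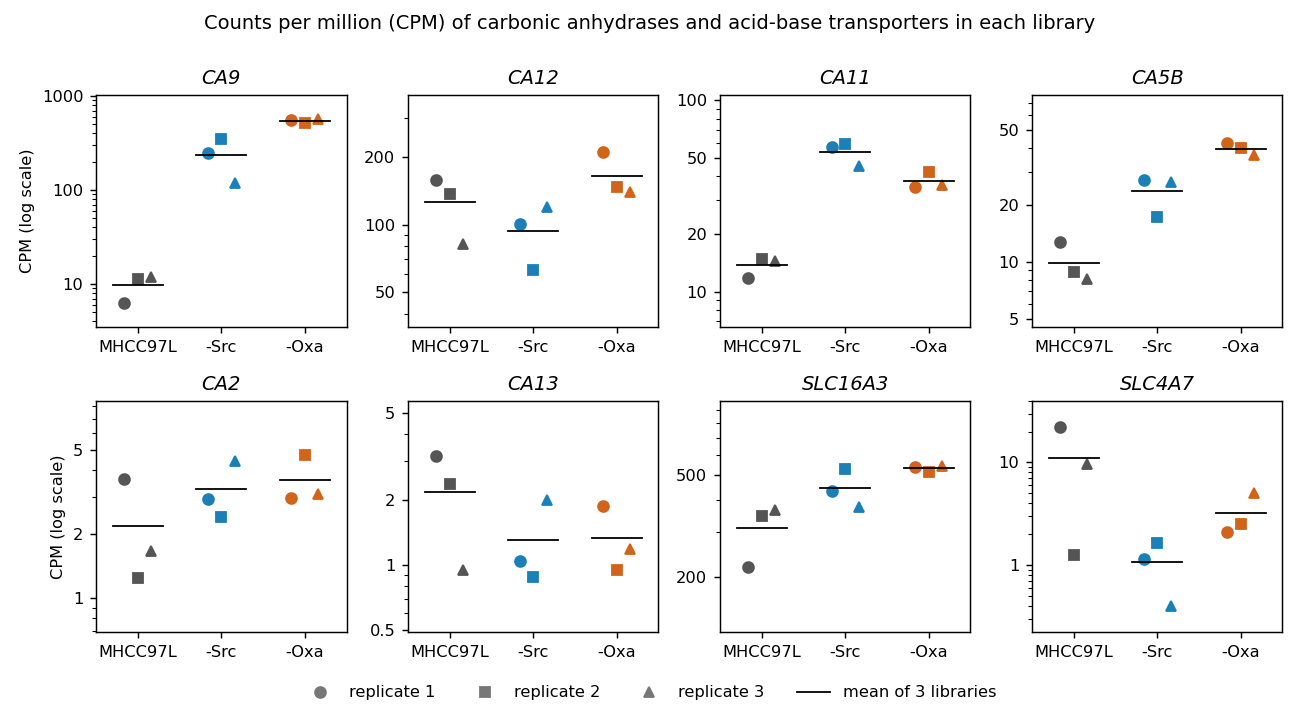
CPM on a log scale for 8 genes in each of the 9 libraries, with the marker shape giving the replicate and the line the mean of 3 libraries. CA9 lies at 6.29 to 11.9 CPM in MHCC97L, 118 to 350.1 in MHCC97L-Src and 511 to 564 in MHCC97L-Oxa; CA8, with no counts, is not drawn.

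In GENCODE release 29 (GRCh38) CA9 lies on chromosome 9 from 35673856 to 35681159 on the + strand, and 60.1% of its longest transcript is G or C. Its exons share 643 bases with ARHGEF39 on the opposite strand, and the sources used here do not say whether reads were counted by strand. ARHGEF39 had 470 to 657 counts in the 9 libraries. Its log2 fold changes were 0.13 ± 0.30 in MHCC97L-Src and 0.13 ± 0.27 in MHCC97L-Oxa, and its ranges overlapped in both comparisons.

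CA12, the other extracellular enzyme, did not separate the resistant lines from MHCC97L. It was at 158, 137 and 82.0 CPM in MHCC97L, 100.2, 62.7 and 119 CPM in MHCC97L-Src and 211, 147 and 139 CPM in MHCC97L-Oxa. The ranges of both resistant lines overlapped with that of MHCC97L, whereas every MHCC97L-Src library was below every MHCC97L-Oxa library. MHCC97L-Src had a log2 fold change of −0.36 ± 0.30 and MHCC97L-Oxa of 0.43 ± 0.29 against MHCC97L, and the resistant lines differed by −0.78 ± 0.21. The corresponding values after GC correction were −0.22, 0.54 and −0.76. CA12 lies on chromosome 15 from 63321378 to 63382161 on the − strand.

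CA11, a secreted relative without catalytic activity, was highest in MHCC97L-Src. It was at 11.8, 14.9 and 14.5 CPM in MHCC97L, 57.1, 58.8 and 45.6 CPM in MHCC97L-Src and 35.1, 41.9 and 36.1 CPM in MHCC97L-Oxa. The 3 lines did not overlap, and their order differed from that of CA9, with MHCC97L-Oxa in the middle. The log2 fold change against MHCC97L was 2.04 ± 0.31 in MHCC97L-Src and 1.46 ± 0.28 in MHCC97L-Oxa, or 1.55 and 1.11 after GC correction. Without MHCC97L replicate 1 or 2 the value in MHCC97L-Oxa was 1.41 or 1.64 and was called. These fits called 2251 and 2705 genes in all. CA11 lies on chromosome 19 from 48637942 to 48646312 on the − strand, and its exons share 74 bases with SEC1P on the opposite strand, which is not in the count table.

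CA5B, the mitochondrial enzyme, followed the same order of lines as CA9. It was at 12.7, 8.79 and 8.12 CPM in MHCC97L, 27.1, 17.4 and 26.6 CPM in MHCC97L-Src and 42.5, 40.2 and 36.8 CPM in MHCC97L-Oxa. No range overlapped with another. The log2 fold change against MHCC97L was 1.33 ± 0.36 in MHCC97L-Src and 2.04 ± 0.29 in MHCC97L-Oxa. Without MHCC97L replicate 1 or 2 the value in MHCC97L-Src was 1.53 or 1.35 and was called, in fits that called 672 and 3419 genes in all. After GC correction the fold changes in both lines were larger, at 2.11 and 2.61, and the transcript has a GC content of 42.9%. The counts of CA5B are uncertain, since the pseudogene copy CA5BP1 shares 29 exonic bases with it on the same strand and the antisense gene INE2 shares 1874, and neither is in the count table. CA5B lies on the X chromosome from 15688830 to 15788409 on the + strand.

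The cytosolic enzymes were scarce. CA2 was at 3.62, 1.24 and 1.67 CPM in MHCC97L, 2.94, 2.42 and 4.44 CPM in MHCC97L-Src and 2.97, 4.74 and 3.10 CPM in MHCC97L-Oxa. CA13 was at 3.17, 2.37 and 0.946 CPM in MHCC97L, 1.04, 0.884 and 1.99 CPM in MHCC97L-Src and 1.87, 0.949 and 1.18 CPM in MHCC97L-Oxa. All ranges of both genes overlapped. The log2 fold changes of CA13, −0.66 ± 0.55 in MHCC97L-Src and −0.66 ± 0.53 in MHCC97L-Oxa, moved to 0.20 and −0.01 after GC correction. Those of CA2 were 0.67 ± 0.50 and 0.77 ± 0.48, and 1.14 and 1.11 after GC correction. CA8, which lacks catalytic activity, had no count in any library and was therefore below 0.165 to 0.177 CPM throughout. The exons of CA13 share 191 bases with the antisense gene AC011773.3, which is not in the count table.

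SLC16A3, the lactate and proton exporter, was abundant in all lines. It was at 219, 346 and 365 CPM in MHCC97L, 433, 528 and 375 CPM in MHCC97L-Src and 540, 513 and 543 CPM in MHCC97L-Oxa. Every library of both resistant lines was above every MHCC97L library, although MHCC97L-Src replicate 3 was above MHCC97L replicate 3 only narrowly. MHCC97L-Src had a log2 fold change of 0.59 ± 0.30 and MHCC97L-Oxa of 0.78 ± 0.26, or 0.25 and 0.61 after GC correction. SLC16A3 lies on chromosome 17 from 82228397 to 82261129 on the + strand and shares 482 exonic bases with CSNK1D on the opposite strand. CSNK1D had log2 fold changes of 0.41 ± 0.25 and 0.33 ± 0.22 in MHCC97L-Src and MHCC97L-Oxa, and its ranges in both lines were also above that of MHCC97L.

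SLC4A7, the sodium bicarbonate cotransporter, differed most among the MHCC97L libraries. It was at 22.3, 1.24 and 9.73 CPM in MHCC97L, 1.15, 1.65 and 0.398 CPM in MHCC97L-Src and 2.09, 2.51 and 5.01 CPM in MHCC97L-Oxa. MHCC97L replicate 2 lay within the range of MHCC97L-Src and below every MHCC97L-Oxa library. MHCC97L-Src had a log2 fold change of −3.21 ± 0.97 and MHCC97L-Oxa of −1.72 ± 0.86, neither called, or −1.44 and −0.37 after GC correction. Without MHCC97L replicate 1 the values as counted were −2.24 and −0.70, and without replicate 2 they were −3.69 and −2.16 and were both called. The fits without replicate 2 called 3419 and 2705 genes in all. SLC4A7 lies on chromosome 3 from 27372721 to 27484420 on the − strand, and its transcript has a GC content of 37.2%, the lowest of the 9 genes.

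GC content went with the place of MHCC97L replicate 1 within its line. In CA9, CA11 and SLC16A3, with 58.9% to 62.7% G or C, this library was the lowest of the 3 MHCC97L libraries. In CA12, CA2, CA5B, CA13 and SLC4A7, with 37.2% to 50.2%, it was the highest. The 6 resistant libraries deviated in the other direction, with rho up to 0.703, and the part of the RNA preparation in these values was not tested.

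**Figure D2:**
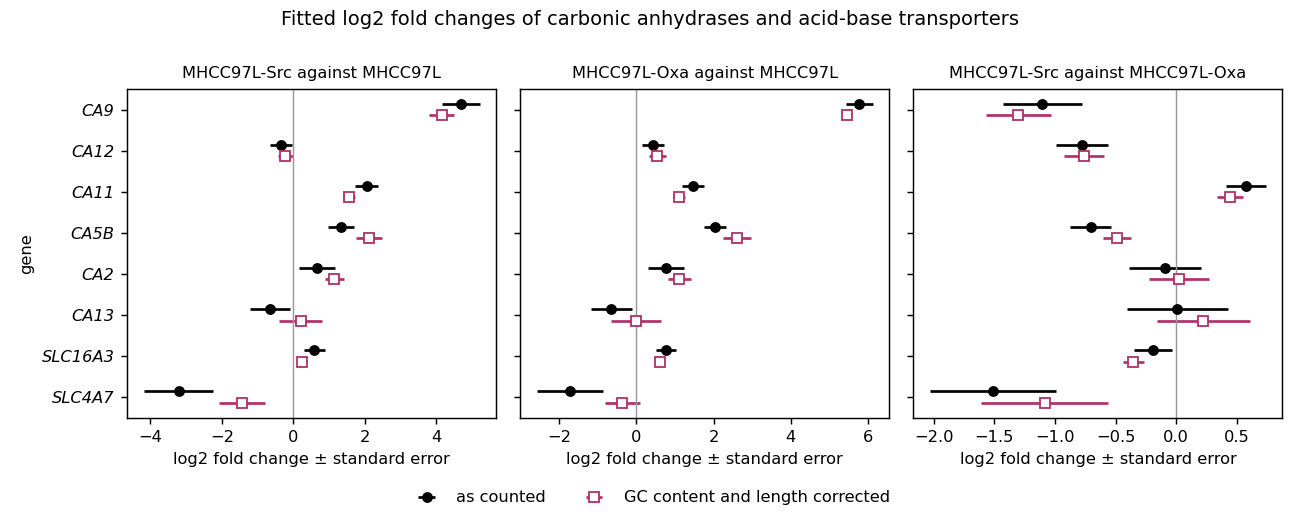
Fitted log2 fold changes (x axis) of 8 genes with their standard errors in the 3 comparisons of lines, as counted (filled circles) and after correction for GC content and length (open squares). CA9 is the farthest to the right in both comparisons with MHCC97L, at 4.68 and 5.78, and SLC4A7 moves most with the correction, from −3.21 to −1.44 in MHCC97L-Src.

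Of the 9 genes, 8 passed the filter on low counts in each comparison, and edgeR's quasi-likelihood test with Benjamini-Hochberg adjustment was fitted over all genes. In MHCC97L-Src against MHCC97L, 2 of the 8 (CA9 and CA11) had an adjusted p under 0.05, both higher, against 2.13% of 12037 genes (1.43% higher and 0.698% lower). After GC correction 4 of the 8 did, against 10.6% of all genes, and 4 had ranges that did not overlap, against 30.5%. In MHCC97L-Oxa against MHCC97L, 2 of the 8 (CA9 and CA5B) passed, both higher, against 0.953% of 12064 genes (0.771% higher and 0.182% lower). There 4 passed after GC correction, against 12.9%, and 4 had ranges that did not overlap, against 29.5%. In MHCC97L-Src against MHCC97L-Oxa, 1 of the 8 (CA5B, lower) passed, against 4.64% of 11994 genes (2.12% higher and 2.52% lower). Here 5 passed after GC correction, against 9.63%, and 5 had ranges that did not overlap, against 27.6%. As counted, 172 of the 256 genes called in MHCC97L-Src and 93 of the 115 in MHCC97L-Oxa were higher, against 662 of 1278 and 784 of 1559 after GC correction. Nothing is read from these shares, because the 9 genes were chosen on the same comparisons. The call of CA11 in MHCC97L-Src was lost without MHCC97L replicate 3 or without any 1 MHCC97L-Src library (log2 fold changes of 1.95 to 2.19). That of CA5B in MHCC97L-Oxa was lost without MHCC97L replicate 3 or any 1 MHCC97L-Oxa library (1.93 to 2.10). That of CA5B between the resistant lines was lost without MHCC97L-Src replicate 1 or any 1 MHCC97L-Oxa library (−0.82 to −0.65). The fits that lost these calls called 22 to 69 genes in all in MHCC97L-Src, 2 in MHCC97L-Oxa and 167 to 243 between the resistant lines. A call lost in such a fit, here and below, is therefore not particular to the gene. CA9 was called against MHCC97L whichever library was left out, which is a description, since it was chosen on these differences. Both comparisons with MHCC97L share its 3 libraries. The median log2 fold change of the 8 genes was 0.63 in MHCC97L-Src and 0.77 in MHCC97L-Oxa, beside −0.16 and −0.19 over all genes tested, which moved to −0.04 and −0.08 after GC correction.

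Levels of different genes were compared as FPKM, in which fragments are scaled to transcript length and library size. In MHCC97L the order was SLC16A3 (155 FPKM), CA12 (23.5), CA9 (5.34), CA11 (4.43), CA2 (1.30), SLC4A7 (1.29), CA5B (0.988) and CA13 (0.594), with CA8 listed at 0. The ranges of CA9 and CA11 overlapped, as did those of each neighbouring pair from CA2 to CA13. In MHCC97L-Src CA9 (135 FPKM) stood next to SLC16A3 (222 FPKM) with overlapping ranges, and above CA11 (18.7) and CA12 (17.4), whose ranges also overlapped. In MHCC97L-Oxa CA9 (310.2 FPKM) was above SLC16A3 (262 FPKM), CA12 (31.0) and CA11 (12.7), with no overlap among these. By counts divided by transcript length, CA9 instead stood above SLC16A3 in MHCC97L-Src and below CA11 in MHCC97L. Among all genes, CA9 ranked 7567, 4872 and 4938 by FPKM in the MHCC97L libraries, 444, 335 and 927 in those of MHCC97L-Src and 193, 212 and 193 in those of MHCC97L-Oxa.

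The carbonic anhydrase transcripts had a different composition in the resistant lines. The tables list 15 carbonic anhydrase genes, of which 6 had no count in any library, 3 had at most 10 counts and 7 had a count in every library. The summed level of the 15 genes was 36.3 ± 6.28 FPKM in MHCC97L, 175 ± 60.9 FPKM in MHCC97L-Src and 360.5 ± 14.9 FPKM in MHCC97L-Oxa (SD, n = 3). CA9 made up 8.17%, 16.3% and 21.8% of this sum in the MHCC97L libraries, 76.4%, 84.8% and 60.4% in those of MHCC97L-Src and 84.2%, 85.7% and 88.2% in those of MHCC97L-Oxa. CA12 held the largest share in every MHCC97L library (72.7%, 65.5% and 53.4%), and its mean share in MHCC97L-Src was 11.7% ± 7.64 and that in MHCC97L-Oxa 8.59% ± 1.93. The level of CA12 itself overlapped between MHCC97L and both resistant lines. The ratio of CA9 to CA12 in FPKM was 0.112 to 0.408 in MHCC97L, 3.02 to 17.1 in MHCC97L-Src and 7.84 to 12.6 in MHCC97L-Oxa.

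**Figure D3:**
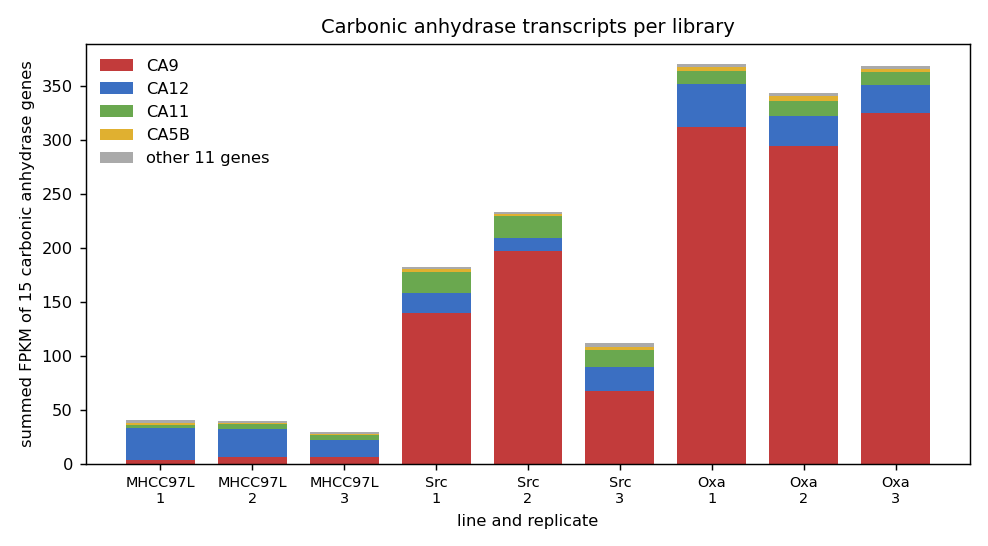
Summed FPKM of 15 carbonic anhydrase genes in each library (bars, from 0), split into CA9, CA12, CA11, CA5B and the other 11 genes. CA12 is the largest part in the 3 MHCC97L libraries, and CA9 makes up 60.4% to 88.2% of the bar in the 6 libraries of the resistant lines.

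Over the 9 libraries, the log2 CPM of CA9 had a Pearson's r of 0.92 with CA5B, 0.89 with CA11, 0.88 with SLC16A3, 0.59 with CA2, 0.16 with CA12, −0.45 with SLC4A7 and −0.51 with CA13. The genes most like CA9 among 11568 compared were ADM2, SPAG4, KIFC2, TMEM91 and EML2, with r of 0.997, 0.995, 0.990, 0.989 and 0.988. Only ADM2 was also among the 5 highest by Spearman's rho. The libraries share 3 lines and their composition, so these values describe the pattern only. SPAG4 was at 2.72, 3.10 and 3.62 CPM in MHCC97L, 17.9, 22.3 and 9.33 CPM in MHCC97L-Src and 30.4, 26.4 and 27.9 CPM in MHCC97L-Oxa, so that MHCC97L-Src replicate 3 was the lowest of its line as in CA9.

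Because CA9 is a HIF target, oxygen-sensing genes and other hypoxia-inducible genes were tested from lists that do not hold the 9 genes. The lists were chosen with earlier results of these data known, and the p-values do not account for that choice. Of 10 regulators, 9 were tested, and ARNT2 and EGLN3 rose in both resistant lines. Over all genes, 1.43% were called higher in MHCC97L-Src and 0.771% in MHCC97L-Oxa. ARNT2, a dimerization partner of HIF proteins, had log2 fold changes of 2.86 ± 0.39 in MHCC97L-Src and 3.06 ± 0.33 in MHCC97L-Oxa (edgeR quasi-likelihood test, adjusted p = 0.0128 and 0.0117). EGLN3, a prolyl hydroxylase that marks HIF proteins for degradation and is itself induced by hypoxia, had 2.35 ± 0.38 and 2.33 ± 0.36 (edgeR adjusted p = 0.0214 and 0.0325). EGLN3 was at 4.28 to 5.83 CPM in MHCC97L and at 18.0 to 30.4 CPM in the 6 resistant libraries.

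Unlike ARNT2, the HIF subunit genes HIF1A, EPAS1 and ARNT were not called against MHCC97L by edgeR as counted. HIF1A was at 131, 16.9 and 85.4 CPM in MHCC97L, 11.8, 12.1 and 11.1 CPM in MHCC97L-Src and 18.7, 26.8 and 36.5 CPM in MHCC97L-Oxa, with log2 fold changes of −2.61 ± 0.61 and −1.45 ± 0.61. Without MHCC97L replicate 1 these were −2.04 and −0.83, without replicate 2 they were −3.02 and −1.84 and were called, and after GC correction they were −1.14 and −0.36 and were not. The fits without replicate 2 called 3419 and 2705 genes in all. The spread of HIF1A in MHCC97L followed the same libraries as that of SLC4A7. EPAS1, which encodes HIF-2α, had log2 fold changes of −1.03 ± 0.23 and −0.08 ± 0.19, ARNT −0.42 ± 0.31 and 0.00 ± 0.27, VHL 0.63 ± 0.24 and 0.51 ± 0.20, and EGLN1 −0.53 ± 0.44 and −0.42 ± 0.42. After GC correction EPAS1 was lower in MHCC97L-Src (log2 fold change −1.10 ± 0.13, edgeR adjusted p = 0.0048). With this correction ARNT had −0.03 and 0.33, VHL 0.87 and 0.69, and EGLN1 0.34 and 0.29, and none was called.

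Of 15 hypoxia-inducible genes, all tested, 1 rose in MHCC97L-Src and 4 rose in MHCC97L-Oxa, and none fell at an adjusted p under 0.05. Over all genes tested, 1.43% and 0.771% were called higher. The fold change was below 0 for 7 of the 15 in MHCC97L-Src and for 4 in MHCC97L-Oxa, among them, named after their values were seen, KDM3A (−1.76 ± 0.75 and −1.37 ± 0.74), LDHA (−0.96 ± 0.40 and −0.15 ± 0.35) and P4HA1 (−0.93 ± 0.64 and −0.21 ± 0.62). BNIP3, a mitophagy receptor, rose in both, with log2 fold changes of 1.24 ± 0.25 and 2.01 ± 0.20 (edgeR adjusted p = 0.0471 and 0.00898). VEGFA, the angiogenic growth factor, rose in MHCC97L-Oxa by 1.21 ± 0.19, NDRG1 by 1.65 ± 0.25 and the glycolytic enzyme ENO2 by 1.76 ± 0.24 on the log2 scale (edgeR adjusted p = 0.0325, 0.0323 and 0.0271). In MHCC97L-Src these 3 had 0.66 ± 0.21, 1.56 ± 0.32 and 1.47 ± 0.35 and were not called (edgeR adjusted p = 0.112, 0.0501 and 0.0769). NDRG1 and ENO2 were called there after GC correction (edgeR adjusted p = 0.0274 and 0.0279). Between the resistant lines NDRG1 and ENO2 had −0.10 ± 0.19 and −0.30 ± 0.22 and were not called, whereas VEGFA was. PGK1, another glycolytic enzyme and the gene of highest level in the list, had 0.25 ± 0.24 and 0.74 ± 0.25 against MHCC97L. The median of the list was 0.25 in MHCC97L-Src and 0.74 in MHCC97L-Oxa, beside −0.16 and −0.19 over all genes. After GC correction 4 and 8 of the 15 were called, all higher, with medians of 0.79 and 1.09, beside 10.6% and 12.9% called and medians of −0.04 and −0.08 over all genes. The corrected fold change was below 0 for 4 and 2 of the 15. It was −0.39 and −0.25 for KDM3A, −0.35 and 0.31 for LDHA, and 0.38 and 0.82 for P4HA1. Without MHCC97L replicate 3 or any 1 MHCC97L-Oxa library, none of the 6 genes called in MHCC97L-Oxa in both lists kept an adjusted p under 0.05, with log2 fold changes of 1.16 to 3.14. Without MHCC97L replicate 3, or MHCC97L-Src replicate 1 or 3, none of the 3 called in MHCC97L-Src did, and without its replicate 2, 1 did, with log2 fold changes of 1.12 to 3.01. Over all genes, these fits called 2 genes each in MHCC97L-Oxa and 22 to 69 in MHCC97L-Src.

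**Figure D4:**
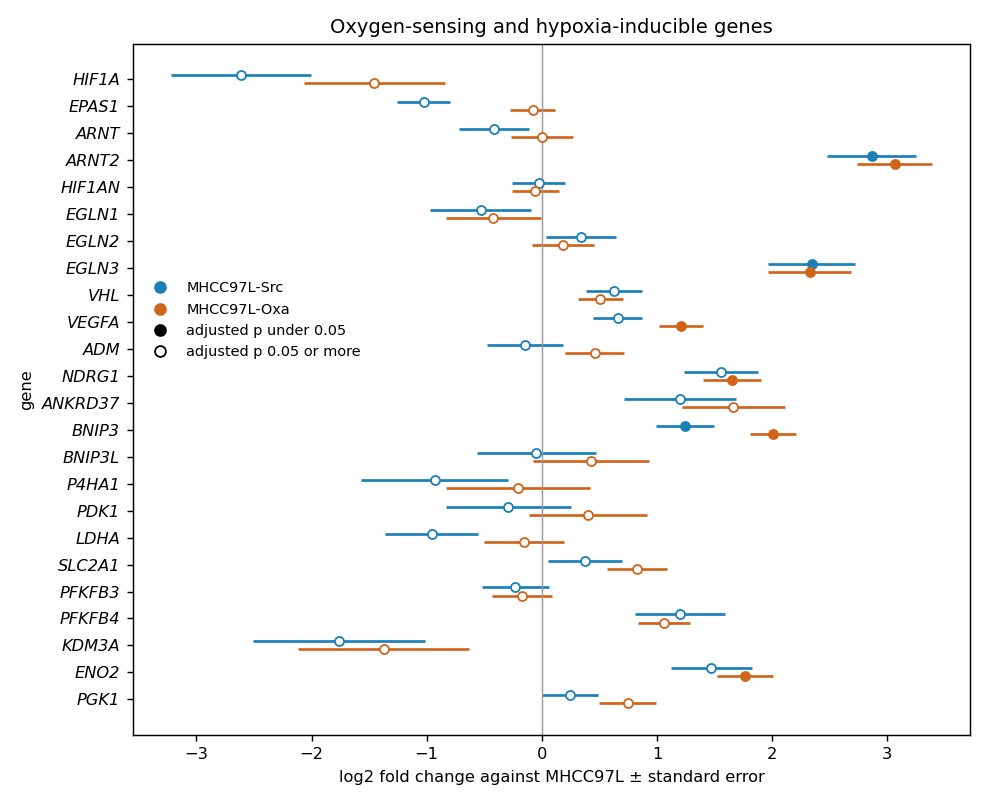
Log2 fold change against MHCC97L (x axis) with standard error for 24 oxygen-sensing and hypoxia-inducible genes in MHCC97L-Src and MHCC97L-Oxa, filled where the edgeR adjusted p was under 0.05. ARNT2 and EGLN3 lie between 2.33 and 3.06 in both lines, while HIF1A lies at −2.61 and −1.45.

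The remaining genes of cellular acid-base balance were tested in lists. Over all genes, 2.13% were called in MHCC97L-Src and 0.953% in MHCC97L-Oxa as counted, and 10.6% and 12.9% after GC correction. A gene that was not called is not thereby shown to be unchanged. Among 5 monocarboxylate transporters and chaperones beside SLC16A3, 3 were tested and none passed. BSG, the chaperone that carries SLC16A3 to the cell surface, was at 686 to 1122 CPM in MHCC97L, 1557 to 1997 CPM in MHCC97L-Src and 1490 to 1518 CPM in MHCC97L-Oxa, without overlap with MHCC97L. Its log2 fold changes were 0.91 ± 0.31 and 0.64 ± 0.27, and the GC-corrected ones passed (0.44 and 0.32, edgeR adjusted p = 0.0293 and 0.0437). SLC16A1 (MCT1), which carries lactate in either direction, was at 212, 31.0 and 45.7 CPM in MHCC97L, and its log2 fold changes of −1.92 ± 0.71 and −1.41 ± 0.62 did not pass. Without MHCC97L replicate 1 these were −0.65 and −0.10, and without replicate 2 they were −2.25 and −1.73 and passed. After GC correction with all libraries they were −0.88 and −0.46 and did not pass. The fits without replicate 2 called 3419 and 2705 genes in all.

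Of 14 bicarbonate and anion exchangers 4 were tested, and of 13 sodium-proton exchangers 9 were tested, and none passed in either resistant line as counted, with 1 bicarbonate or anion exchanger lower in MHCC97L-Oxa after GC correction. SLC4A2, the chloride-bicarbonate exchanger with the highest level, had log2 fold changes of 0.10 ± 0.30 and −0.23 ± 0.26. CHP1, a cofactor of sodium-proton exchangers, had −0.21 ± 0.27 and −0.18 ± 0.26. After GC correction SLC4A2 had −0.20 and −0.38, and CHP1 had 0.13 and 0.08. Of 25 genes of the V-type proton pump, 22 were tested, and 1 of them, ATP6V0A4, fell in MHCC97L-Src with a log2 fold change of −2.90 ± 0.53 (edgeR adjusted p = 0.0325), from 31 to 59 counts in MHCC97L to 3 to 7 counts. In MHCC97L-Oxa ATP6V0A4 had −2.31 ± 0.51, with 6 to 14 counts, and was called there after GC correction (−2.20, edgeR adjusted p = 0.0132). ATP6V0C, the subunit of highest level, had 0.28 ± 0.29 and −0.21 ± 0.25, and after GC correction it was lower in MHCC97L-Oxa (−0.64, edgeR adjusted p = 0.0069). After GC correction 1 gene of the list was higher and 1 lower in MHCC97L-Src, and 1 was higher and 3 were lower in MHCC97L-Oxa. Over all genes, 10.6% and 12.9% were called with this correction. Of 8 acid sensors 2 were tested, and the proton-gated channel ASIC1 rose in MHCC97L-Src by 1.85 ± 0.30 (edgeR adjusted p = 0.0222), from 11.8 to 14.2 CPM to 43.3 to 49.3 CPM. ASIC1 had 1.14 ± 0.29 in MHCC97L-Oxa, and 0.97 after GC correction, which was called (edgeR adjusted p = 0.00935). The calls of ATP6V0A4 and ASIC1 were each lost without MHCC97L replicate 3 or any 1 MHCC97L-Src library, with log2 fold changes of −3.09 to −2.57 and 1.77 to 1.93. In MHCC97L-Oxa both genes were called without MHCC97L replicate 1 or 2, at −2.22 to −2.02 and 1.10 to 1.31. These fits called 2251 and 2705 genes in all. None of the 4 other proton pumps and channels and none of the 8 other carbonic anhydrases passed the filter on low counts. HVCN1, the gene of highest level in the first list, had at most 8 counts, and CA5A, that of the second, had 2 to 10.

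Markers of other cell types moved in part with the lines. The summed level of 8 blood cell markers was 0.906 to 1.39 CPM in MHCC97L, 5.83 to 6.42 CPM in MHCC97L-Src and 4.41 to 5.00 CPM in MHCC97L-Oxa, and 1 of the 8 was tested. This was CD14, the monocyte receptor for lipopolysaccharide, with log2 fold changes of 2.58 ± 0.43 and 2.24 ± 0.39 (edgeR adjusted p = 0.0236 and 0.0428), both lost without MHCC97L replicate 3 or any 1 library of the resistant line (2.19 to 2.67). The leukocyte gene PTPRC was at 0 in every library. Of 8 endothelial and fibroblast markers, summing to 109 to 205 CPM in MHCC97L, 83.3 to 105 CPM in MHCC97L-Src and 139 to 156 CPM in MHCC97L-Oxa, 5 were tested. The endothelial cadherin CDH5 rose in MHCC97L-Src by 3.30 ± 0.46 on the log2 scale (edgeR adjusted p = 0.0139) and had −1.31 ± 0.45 in MHCC97L-Oxa, while VWF had at most 4 counts. The call of CDH5 was lost without MHCC97L replicate 3 or MHCC97L-Src replicate 2 or 3 (3.26 to 3.30). COL1A1, the gene of highest level in this list, had 0.09 ± 0.23 and 0.32 ± 0.20. Of 11 hepatocyte and HCC markers, 2 entered the MHCC97L-Src comparison and 3 the MHCC97L-Oxa comparison, and 1 passed, in the latter. This was SERPINA1, a liver secretory protein (edgeR adjusted p = 0.0323), with 1 count in each MHCC97L library, 9 to 22 in MHCC97L-Src and 14 to 31 in MHCC97L-Oxa, and its call was lost without MHCC97L replicate 3 or any 1 MHCC97L-Oxa library (log2 fold changes of 3.65 to 4.35). After GC correction KRT8 and KRT18, the latter named after its values were seen, were lower in MHCC97L-Oxa (−1.11 ± 0.14 and −0.58 ± 0.11, edgeR adjusted p = 0.0055 and 0.0179), beside −0.94 ± 0.30 and −0.33 ± 0.27 as counted, which were not called. The part of other cell types in the levels of CA9 was not tested.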

How the data were processed

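RNA of 3 lines was sequenced in 3 libraries each after poly(A) selection with a stranded kit. The authors deposited raw counts of reads per gene and, for the same 20030 genes, FPKM values. The submitters' processing notes name Trimmomatic 0.36, HISAT2 2.2.1.0 and GRCh38.p12, and the counting program and its strand setting are not given in the sources used here. Both tables were used, and CPM values were computed from the counts. Between 245 and 297 genes per library had a count and an FPKM of 0, so the deposited FPKM values are not a plain rescaling of the counts.

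Groups came from the treatment in the labels. The study describes MHCC97L and MHCC97L-Src as compared in 3 independent experiments, but the labels do not say what the libraries of a line share, so p-values measure the spread between these libraries, which may in part be technical. MHCC97L-Src and MHCC97L-Oxa were each set against MHCC97L and against each other with the 6 libraries concerned (quasi-likelihood test of edgeR, filterByExpr with a minimum count of 10, TMM normalization, Benjamini-Hochberg adjustment over all genes tested, adjusted p under 0.05). A standard error was obtained as the absolute log2 fold change over the root of its F statistic. GC content and length were those of the longest GENCODE 29 transcript, found for 19343 genes (13518 by RefSeq accession and 5825 by symbol), and the correction entered as offsets from natural splines with 5 degrees of freedom each. Log2 CPM used a prior count of 2, and genes of at least 1 CPM on average were correlated with CA9.

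The 9 genes, the gene lists and the tests were chosen with earlier results of these data known. Named beside the 9 genes were HIF1A, EPAS1, ARNT, VHL, EGLN1, EGLN3, BSG and SLC16A1, and some items are not reported here. From each of 12 lists, the rule added the genes called against MHCC97L (at most 6) and the gene of highest mean FPKM, and it added the 5 genes most correlated with CA9. PTPRC, CD3E, HBB, VWF and the hepatocyte and HCC genes at 0 were named as markers, and ARHGEF39, CSNK1D, CA5BP1, INE2, SEC1P and AC011773.3 as overlapping genes.

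The fits were tested on simulated data with 200 changed genes. The simulated libraries had the same dispersion for every gene, changes of a fixed size, and no GC bias or outlying library. The results below therefore check the fitting code and do not measure power or false calls in the real libraries. For MHCC97L-Src against MHCC97L 200 of the 200 were recovered with 11 false calls among 11485 genes, for MHCC97L-Oxa against MHCC97L 198 with 6 among 11502, and for MHCC97L-Src against MHCC97L-Oxa 199 with 15 among 11223. Alternatives were DESeq2, other scalings and filters, a block for the replicate number, a joint fit of the 9 libraries, the GC correction alone or with the block, limma-trend with FPKM on a log2 scale after adding 1 or 0.1, and leaving out each library. Fits were run with edgeR 4.0.16, DESeq2 1.42.0 and limma 3.58.1 under R 4.3.3. Tables and plots were made with matplotlib 3.10.9, SciPy 1.17.1 and pandas 2.3.3 under Python 3.11.15.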

Additional observations from a re-analysis of the deposited data

Results flagged for a closer look

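The difference between the resistant lines was itself past the threshold for 9 of the named genes (edgeR's quasi-likelihood test of MHCC97L-Src against MHCC97L-Oxa, Benjamini-Hochberg adjustment). CA5B was lower in MHCC97L-Src by a log2 fold change of −0.70 ± 0.17 (adjusted p = 0.0451), which is a description, since the gene was chosen on such differences. Of 9 oxygen-sensing and 15 hypoxia-inducible genes tested, 5 were called, all lower in MHCC97L-Src, against 4.64% of all genes called and 2.52% called lower. They were HIF1A (−1.17 ± 0.24, adjusted p = 0.0235), EPAS1 (−0.95 ± 0.13, adjusted p = 0.00308), BNIP3 (−0.77 ± 0.14, adjusted p = 0.0125), VEGFA (−0.55 ± 0.10, adjusted p = 0.0129) and P4HA1 (−0.72 ± 0.16, adjusted p = 0.0308), which is named after its values were seen. In the first 4 of these every MHCC97L-Src library was below every MHCC97L-Oxa library. After GC correction 2 of the 9 and 4 of the 15 were called, all lower, against 9.63% of all genes. HIF1A and P4HA1 were not among them (edgeR adjusted p = 0.0538 and 0.107). Without MHCC97L-Src replicate 1 or MHCC97L-Oxa replicate 2, 1 of the 5 kept its call, and without MHCC97L-Oxa replicate 1 or 3, 2 did. TMEM91, among the 5 genes most like CA9, had −0.85 ± 0.20 (adjusted p = 0.0391), which is a description too, since it was chosen for its likeness to CA9 in these libraries. ASIC1 (0.72 ± 0.15, adjusted p = 0.0248), KRT8 (0.87 ± 0.16, adjusted p = 0.0136) and CDH5 (4.61 ± 0.28, adjusted p = 1.7e-05) were higher in MHCC97L-Src. Without MHCC97L-Src replicate 1 or any 1 MHCC97L-Oxa library, CA5B, TMEM91, ASIC1 and KRT8 were no longer called, whereas CDH5 and EPAS1 were called whichever library was left out. Of the 9 calls, 7 were lost under at least 1 other alternative, with adjusted p up to 0.448 for CA5B, 0.763 for HIF1A, 0.166 for BNIP3, 0.246 for VEGFA, 0.502 for TMEM91, 0.315 for ASIC1 and 0.377 for KRT8, each with all 9 libraries in the fit. EPAS1 and CDH5 kept theirs, and P4HA1 lost its call under that fit as well (adjusted p = 0.999).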

How the results depend on the processing

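CA9 stayed higher and called against MHCC97L in each alternative run, with log2 fold changes of 4.06 to 4.79 in MHCC97L-Src and 5.45 to 5.89 in MHCC97L-Oxa, and also whichever library was left out. This is a description and not a test, since CA9 was chosen on differences between these same libraries. The difference of CA9 between the resistant lines, −1.10, was not called. It was called with no filter (−1.11), with the replicate block (−1.26), after GC correction (−1.30) and after GC correction with the replicate block (−1.39). When a library was left out it ranged from −1.57 to −0.74. No direction of a called gene named here was reversed. Under alternatives other than leaving out a library, 4 of 10 named calls in MHCC97L-Src, 5 of 13 in MHCC97L-Oxa and 7 of 9 between the resistant lines were lost at least once. Against MHCC97L the highest edgeR or limma adjusted p was 0.067 for ATP6V0A4, 0.0592 for BNIP3, 0.0528 for CD14 and 0.0714 for SPAG4 in MHCC97L-Src, and 0.0554 for EGLN3, 0.0684 for VEGFA and EML2, 0.102 for CD14 and 0.117 for SERPINA1 in MHCC97L-Oxa. The number of genes called was 256 in MHCC97L-Src, 115 in MHCC97L-Oxa and 556 between the resistant lines. It moved with DESeq2's test (2187, 930 and 836), all 9 libraries in 1 fit (1956, 495 and 86) and the GC correction (1278, 1559 and 1155). It also moved in MHCC97L-Src when all genes were kept (702) or when each library had to reach 10 counts (162), and in MHCC97L-Oxa with total counts (211), GC correction with the block (583) and limma-trend with 1 (254) or 0.1 (259) added to FPKM before taking log2. When a library was left out it ranged from 22 to 3419, from 2 to 2705 and from 167 to 1617, lowest without MHCC97L replicate 3 in both comparisons with MHCC97L (as without any 1 MHCC97L-Oxa library in the second) and highest without MHCC97L replicate 2. The causes of these moves were not tested. The replicate numbers are not known to pair the libraries. Deviations of same-numbered libraries correlated at 0.171, 0.217 and −0.650 between MHCC97L-Src and MHCC97L, at −0.215, −0.134 and 0.444 between MHCC97L-Oxa and MHCC97L, and at 0.0305, −0.0851 and −0.292 between the resistant lines. With the replicate block 988, 92 and 406 genes were called, and CA9 differed between the resistant lines by −1.26, which is a description as for its other values. Depth limits, among others, CA8, CA13, CA2, CA5A, HVCN1, SERPINA1 and ATP6V0A4, with fewer than 100 counts per library. It also limits SLC4A7, with fewer than 100 counts in each library of the resistant lines.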
